A study of Mus musculus with 2 samples.

Results

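Pcdh15, Camta1, Bbx, Anks1b, Gmds and Nalcn are 6 long mouse genes with peaks of RNA that came down with an antibody against the RNA-binding protein ELAVL2. They were chosen by symbol from the authors' peak-to-gene table because of their peak counts and fold enrichments over input. These counts and folds are therefore a description here and carry no test. The table names 11969 genes. Of the 28332 peaks in the series, 141 were paired with the 6 genes, and 138 of those overlapped a gene body. The study is an RNA immunoprecipitation with sequencing (RIP-seq) of newborn mouse ovary at postnatal day 0. It has 1 sample of each kind, RIP and input, both without any genetic change or treatment named. The RIP used 5 μg of an anti-ELAVL2 antibody (Protein tech) on the cleared lysate of 100 pooled whole ovaries, and the input was 5% of that starting material. Both RNAs were amplified as antisense RNA before library preparation. The mouse strain is not given in the labels, and no control pulldown is among the samples, so binding to ELAVL2 and unspecific retention on the beads cannot be told apart. The files list enriched regions and not expression levels, so the tissue label could not be checked against marker genes.

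ELAVL2 belongs to the ELAVL (Hu) family, whose members bind U-rich and AU-rich stretches in the 3' untranslated regions and introns of RNA and act on its stability, translation and processing. In the ovary, ELAVL2 is found in oocytes. Long genes give long primary transcripts that are mostly intron, whereas the mature messenger RNA usually ends in a 3' untranslated region close to the end of the gene body. The position of a peak along the body therefore says which part of the gene the RNA came from, although the peaks carry no strand and exons were not used here.

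Pooled over 3 lanes each, the peak caller read 172711531 tags for the RIP and 210270620 for the input. It kept 1 tag per position and strand, which left 13787676 (7.98%) of the RIP and 19479946 (9.26%) of the input. The peak caller scaled the input by 0.708, so that 1 input tag counts as 0.708 scaled tags. Each peak has a pileup, which is the number of RIP tags over its summit, a fold enrichment, which is (pileup + 1) over (input level + 1), and a -log10 q, and all 3 are the authors' own values. The input level was computed as (pileup + 1)/fold - 1. This level is a local background set by the peak caller, not a count of tags at the peak, with a floor of 0.369 scaled tags set by the genome-wide mean. Each arm is 1 sample, so differences have no replicate check and no p-value is given. Of 1068 reference genes of at least 200 kb, 63.0% were overlapped by at least 1 peak, 23.0% by at least 5 and 10.0% by at least 10. All 6 genes are in this size class and were chosen for their peaks, so their own counts are not read against these shares.

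The starts of the genes are shown first. RefSeq windows of build GRCm38.p6, from 250 bases before to 50 after a start, were matched by symbol for 5 of the 6 genes, with Bbx unmatched. Among the 9 windows, 2 had a peak within 1 kb, and both are shown because they are the only windows this close to a peak. The last 50 bases, which are transcribed, are in capitals, and each sequence runs 5′ to 3′ on the strand of the gene.
Camta1, chr4:151861719-151862018, minus strand: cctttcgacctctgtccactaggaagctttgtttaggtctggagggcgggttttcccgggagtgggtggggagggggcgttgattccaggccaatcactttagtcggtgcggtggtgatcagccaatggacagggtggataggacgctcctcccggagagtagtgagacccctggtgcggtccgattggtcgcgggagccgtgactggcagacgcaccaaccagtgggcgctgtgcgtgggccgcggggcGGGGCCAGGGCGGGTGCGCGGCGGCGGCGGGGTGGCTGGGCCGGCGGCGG
Pcdh15, chr10:73821617-73821916, plus strand: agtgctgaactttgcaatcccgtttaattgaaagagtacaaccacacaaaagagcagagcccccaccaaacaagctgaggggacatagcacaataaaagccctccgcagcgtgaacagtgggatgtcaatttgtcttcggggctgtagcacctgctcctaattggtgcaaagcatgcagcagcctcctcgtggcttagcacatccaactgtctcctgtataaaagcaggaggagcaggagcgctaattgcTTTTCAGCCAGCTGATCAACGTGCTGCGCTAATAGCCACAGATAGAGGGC
The Camta1 peak at 151861615 to 151861722 overlapped the last 4 bases of its window, and its summit lay 110 bp after the start. The Pcdh15 peak at 73822194 to 73822273 began 278 bp beyond its window, with the summit 367 bp after this start, which lies inside the longer reference gene body. The AU-rich pentamer ATTTA and a run of TTTTT were searched on both strands. Neither window held either motif, against 34.1% of all 32851 windows for ATTTA and 42.7% for TTTTT. Of the windows farther from a peak, that of Nalcn held ATTTA and one of those of Anks1b held TTTTT. Only the last 50 bases of a window are transcribed, so the search does not show which motifs the RNA holds. The other 7 windows were at least 10137 bp from a peak of their gene.

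**Figure D1:**
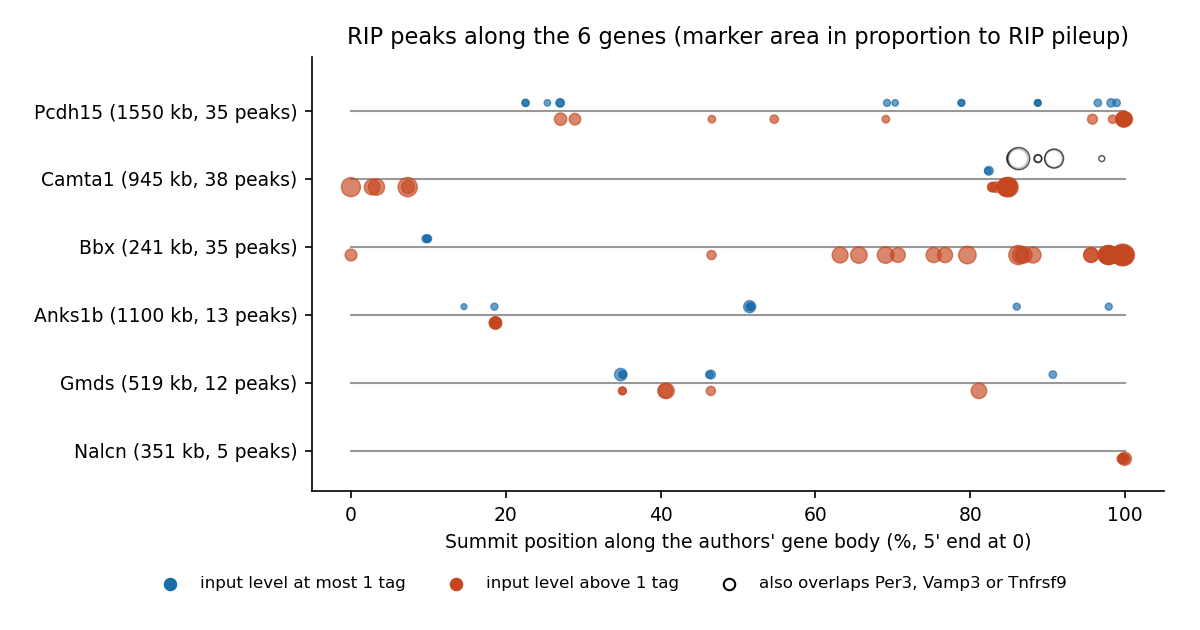
RIP peaks along the authors' bodies of Pcdh15, Camta1, Bbx, Anks1b, Gmds and Nalcn, as percent of the body from the 5' end (0) to the 3' end (100). Each marker is 1 peak, with its area in proportion to the pileup, blue where the input level was at most 1 tag, red where it was higher and open where the peak also overlaps Per3, Vamp3 or Tnfrsf9. Nalcn has its 5 peaks at the 3' end, and Anks1b and Gmds have none in the last 10 kb.

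Pcdh15 encodes protocadherin 15, a cadherin of the tip links between hair-cell stereocilia and an Usher syndrome gene. Its body (ENSMUSG00000052613, chromosome 10, 73099342 to 74649737, plus strand, mm10) is the longest of the set at 1550.4 kb and was overlapped by 35 peaks. Peaks separated by at most 10 kb were joined into 13 clusters, 7 of them single peaks. The largest cluster held 16 peaks and reached the 3' end. The first peak along the strand, at 73449124 to 73449231, lay 349.8 kb after the 5' end, and the last, at 74649241 to 74649630, had its summit 0.246 kb before the 3' end. Within the last 10 kb there were 13 peaks, with RIP pileups of 9 to 36 against input levels of 0.736 to 10.6 (medians 22 and 4.25) and folds of 3.19 to 5.76. The highest pileup of Pcdh15, 36 RIP tags against an input level of 10.6, was among them, at 74646400 to 74646600, where the fold was 3.19.

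The other 22 Pcdh15 peaks were spread over 12 places and part of the last cluster, with a lower median pileup. Their RIP pileups were 6 to 22 against input levels of 0.369 to 3.54 (medians 8 and 0.708), and 15 of them stood at an input level of at most 1 tag (0.708). The largest fold of the gene, 11.8, was at 73519209 to 73519419, with 22 RIP tags (exact Poisson 95% interval 13.8 to 33.3, counting error only) against an input level of 0.956 and a -log10 q of 17.3. Its neighbours in the same 1.20 kb cluster had 9 and 10 tags against 0.369 each. Identical values recurred at the floor, where 6 of the scattered peaks had exactly 6 tags, an input level of 0.369 and a fold of 5.11. A further 3 peaks were paired with Pcdh15 from upstream, at 72973379 to 73023744. All 3 lay inside the reference lncRNA gene A330049N07Rik (72973303 to 73086705), with folds of 3.75, 4.68 and 8.77. Inside the body, 2 peaks also overlapped Gm15397 in the authors' deposited table.

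Camta1 encodes a calmodulin-binding transcription activator. The authors' body (ENSMUSG00000014592, chromosome 4, 150917322 to 151861876, minus strand, 944.6 kb) was overlapped by 38 peaks in 8 clusters, but its 3' end lies 142.2 kb beyond that of the reference gene, which runs from 151059523 to 151861768. Only 21 of the 38 peaks lay in the reference body. Of the other 17, 8 overlapped Per3, a circadian clock gene, 8 overlapped Vamp3, a vesicle SNARE gene, and 1 overlapped Tnfrsf9, a TNF receptor family gene, in the authors' deposited table, and those over Vamp3 also lay in the reference gene Gm38529. The 8 peaks in Per3 had RIP pileups of 7 to 52 against input levels of 0.708 to 21.9, and the 8 in Vamp3 had 42 to 71 against 17.0 to 32.6. The highest pileup and the largest input level paired with Camta1, 71 RIP tags and 32.6 scaled input tags at different peaks, therefore both lay over Vamp3. Which of the overlapping genes these tags came from cannot be told apart. Of the 7 peaks in the last 10% of the authors' body, 6 were over Per3 and 1 over Tnfrsf9.

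Inside the reference body of Camta1, the peaks formed 2 separated groups with a gap of 707.1 kb between them, 74.9% of the authors' body. At the 5' side, 5 peaks lay 0.218 to 69.9 kb from the authors' 5' end. The peak at the start itself had 52 RIP tags against an input level of 12 (fold 4.07), and that at 151792238 to 151792462 had 53 against 9.20, where the fold was 5.29 and the -log10 q, at 17.3, the largest of the gene. The start peak also overlapped the reference lncRNA gene Gm42357. At the 3' side, 11 peaks filled 3.15 kb (151059540 to 151062685) next to the reference 3' end, with RIP pileups of 28 to 55 against input levels of 8.49 to 24.8 (medians 44 and 11.4) and folds of 2.17 to 4.74. A further 5 peaks lay between 151075095 and 151084801, and they had pileups of 6 to 16 against 0.369 to 4.95. One of these, at 151083703 to 151083807, had the largest fold of Camta1, 7.03, at 11 RIP tags against 0.708.

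Bbx encodes an HMG-box protein related to the fly gene bobby sox. Its body (ENSMUSG00000022641, chromosome 16, 50191844 to 50432390, minus strand) is the shortest of the set at 240.5 kb, and 35 peaks overlapped it, or 14.6 per 100 kb. No peak of Bbx overlapped another gene in the authors' deposited table. The 35 peaks formed 7 clusters, of which the last held 19 peaks in 10.5 kb. In the last 10 kb there were 17 peaks, with RIP pileups of 31 to 69 against input levels of 7.16 to 27.6 (medians 44 and 17.9) and folds of 1.83 to 3.96. The largest -log10 q of Bbx, 13.6, was at 50192022 to 50192153 next to the 3' end, with 59 RIP tags against 14.2, and its highest pileup was 69 against 19.1 at 50192431 to 50192852.

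Away from the 3' end, the input level at Bbx peaks varied along the gene. From 28.7 to 88.6 kb before the 3' end, 11 peaks in 3 clusters still had pileups of 31 to 53 against input levels of 8.49 to 28.3. Nearer the 5' end the input level was lower. A peak 112.1 kb after the 5' end had 12 RIP tags against 1.42, 3 peaks 23.4 to 23.9 kb after the 5' end had 8, 8 and 9 tags against 0.460, 0.708 and 0.531, and the peak nearest the 5' end, at 50432254 to 50432312, had 20 against 2.12. That last peak, 0.092 kb after the 5' end, had the largest fold of the gene, 6.72. The 5 Bbx peaks nearest the 5' end thus had folds of 5.27 to 6.72, and the 30 others had folds of 1.83 to 4.21.

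**Figure D2:**
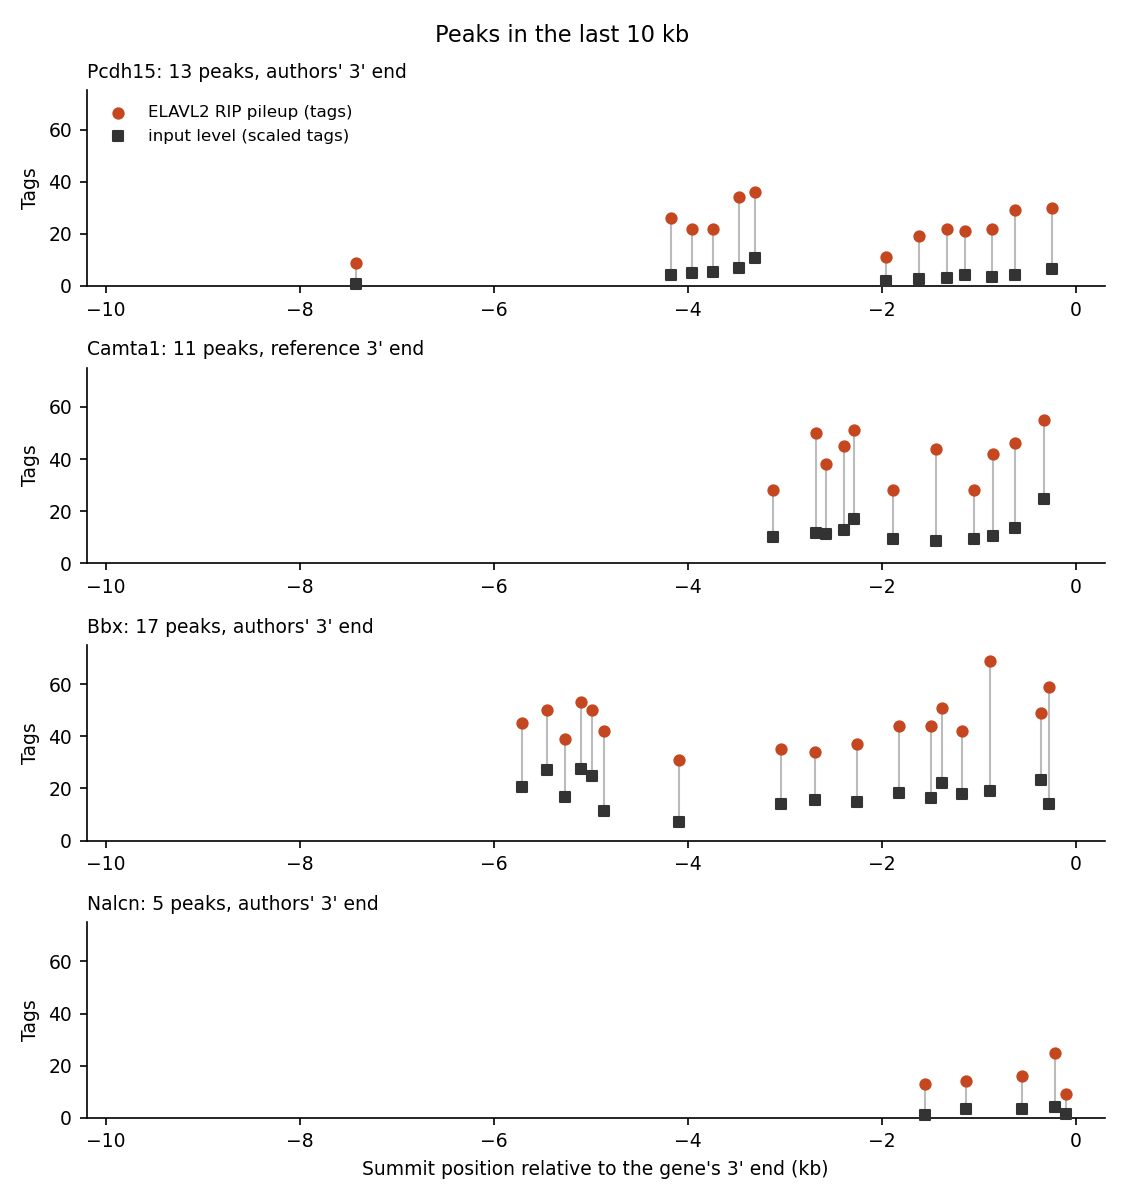
Peaks within 10 kb of the 3' end of Pcdh15, Camta1, Bbx and Nalcn, by distance of the summit from the end in kb. Red circles are the ELAVL2 RIP pileup in tags and black squares the input level in scaled tags, and for Camta1 the reference 3' end is used. The panels hold 13, 11, 17 and 5 peaks, and every RIP pileup is above its input level, as the peak call requires.

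Anks1b encodes an ankyrin-repeat protein of the postsynaptic density. Its body (ENSMUSG00000058589, chromosome 10, 89873509 to 90973300, plus strand) spans 1099.8 kb and was overlapped by 13 peaks in 5 clusters, none in the last 10 kb. A cluster of 6 peaks in 1.85 kb lay 204.1 kb after the 5' end, and 4 peaks in 1.46 kb lay 566.5 kb after it. The first of these clusters had RIP pileups of 7 to 22 against input levels of 0.708 to 2.83. The second began with the highest fold of the gene, 14.7, at 90439879 to 90440020, where 21 RIP tags (interval 13.0 to 32.1) stood against an input level of 0.495, with a -log10 q of 21.2. This fold ranked 6 among all 28332 peaks. The 3 other peaks of that cluster had 8 RIP tags each against 0.708, 0.602 and 0.708, with folds of 5.27, 5.62 and 5.27. The remaining 3 peaks stood alone, with 5, 7 and 7 tags against 0.708, 0.708 and 0.369, and the last of them, at 90949818 to 90949867, was 23.5 kb before the 3' end. The lone first peak had the lowest fold of the gene, 3.51, and a -log10 q of 1.31.

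Of the 13 Anks1b peaks, 4 had a twin elsewhere in the series, meaning another peak that matched it in length, pileup, fold and position of the summit. These 4 were all 50 bp long with 7 or 8 tags. Among the 138 peaks of the 6 genes 9 had a twin, against 7.80% of all peaks.

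Gmds encodes GDP-mannose dehydratase, the first enzyme of GDP-fucose synthesis from GDP-mannose. Its body (ENSMUSG00000038372, chromosome 13, 31819579 to 32338712, minus strand, 519.1 kb) was overlapped by 12 peaks in 5 clusters, the nearest of them 48.5 kb from the 3' end. The strongest peak, at 32157576 to 32157746, had 22 RIP tags (interval 13.8 to 33.3) against an input level of 0.531, a -log10 q of 22.1 and a fold of 15, and its fold ranked 5 among all peaks. Further along the strand in the same 1.49 kb cluster were 4 smaller peaks of 7 to 9 tags against 0.637 to 1.42, with folds of 3.73 to 5.74. A tall peak followed by smaller ones was thus seen in 1 cluster each of Gmds and Anks1b. The order differed in the larger Anks1b cluster, with 7, 12, 15, 22, 21 and 19 tags along the strand. It also differed in the Pcdh15 cluster with the largest fold of that gene, with 9, 10 and 22. A second kind of Gmds peak had a higher input: the pair at 32126997 to 32128030 had 34 and 31 RIP tags against 16.3 and 13.4, and the lone peak at 31917612 to 31917673 had 34 against 13.4. These 3 had folds of 2.03, 2.21 and 2.42, the lowest of the gene. A trio at 32097215 to 32098357, with 8 to 12 RIP tags and folds of 5.38 to 7.03, also overlapped the reference lncRNA gene Gm35672. The authors' table marks no gene other than Gmds as overlapping this trio. The last peak along the strand, at 31868091 to 31868157, had 8 tags against 0.369, with a fold of 6.58.

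**Figure D3:**
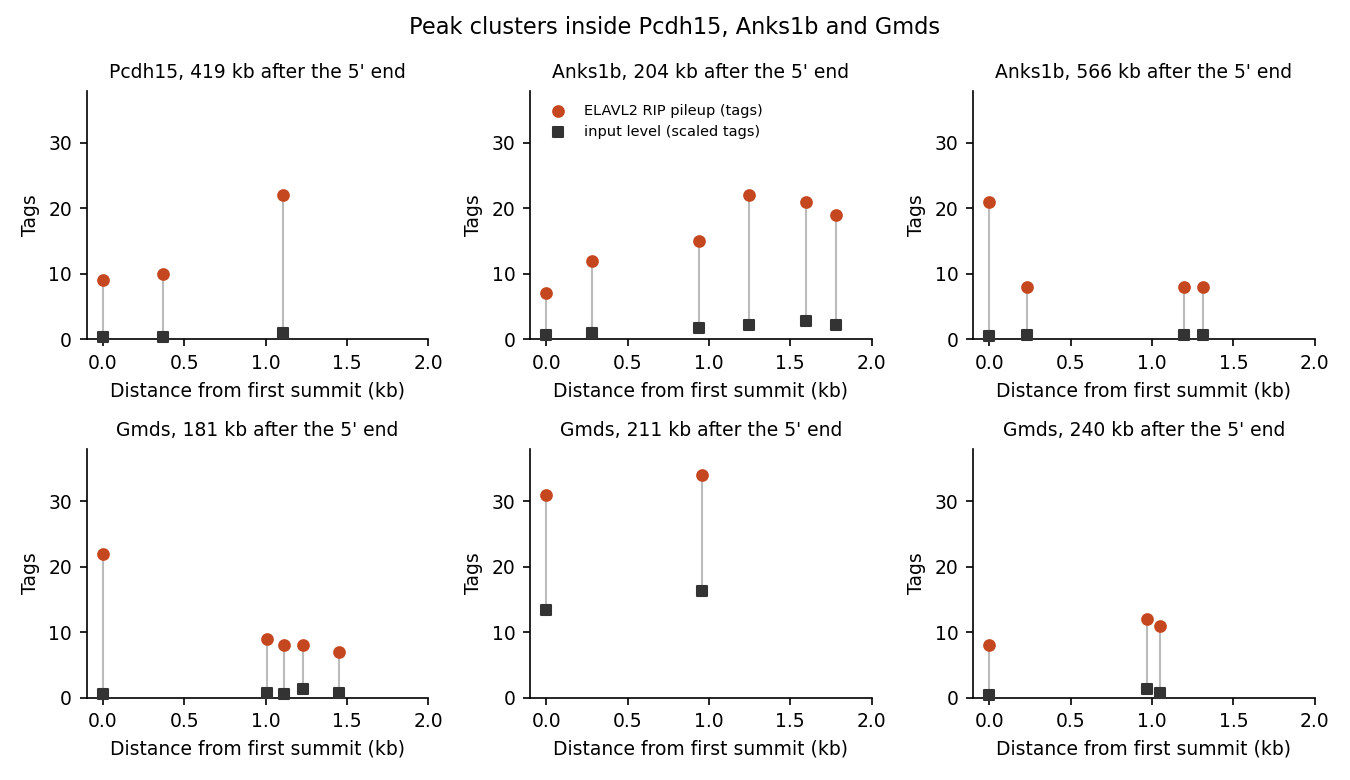
Clusters of peaks inside Pcdh15, Anks1b and Gmds, by distance in kb from the first summit of each cluster on the gene's strand. Red circles are the ELAVL2 RIP pileup in tags and black squares the input level in scaled tags. The tall peaks reach 22 tags in Pcdh15, 22 and 21 in Anks1b and 22 in Gmds, and the Gmds pair 211 kb after the 5' end is the only cluster shown with input levels above 13.

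Nalcn encodes a sodium leak channel that carries a resting inward current in neurons. Its body (ENSMUSG00000000197, chromosome 14, 123276641 to 123627144, minus strand, 350.5 kb) was overlapped by 5 peaks, and all 5 lay in 1 cluster of 1.54 kb at the 3' end (123276685 to 123278227). The name under which the genes were grouped, many scattered peaks, therefore does not describe Nalcn. Along the strand, the RIP pileups were 13, 14, 16, 25 and 9, against input levels of 1.20, 3.54, 3.54, 4.25 and 1.63. The largest fold, 6.35, was at the farthest peak from the end (1.56 kb), and the largest -log10 q, 7.85, at the peak with 25 tags, where the fold was 4.96. No Nalcn peak stood at an input level of at most 1 tag, and the cluster spanned 0.415% of the body.

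Set side by side, the genes differed in where their peaks stood and at what input level. In the last 10 kb of the authors' bodies there were 13 peaks of Pcdh15, 17 of Bbx and 5 of Nalcn and none of Camta1, Anks1b and Gmds, while 11 Camta1 peaks lay in the last 10 kb of its reference body. None of the 35 peaks in the last 10 kb had an input level of at most 1 tag, against 37 of the 103 peaks elsewhere (35.9%). The 506 other genes of at least 100 kb with at least 5 overlapping peaks differed in the same direction, with 2.49% of 1848 gene-peak pairs in the last 10 kb and 26.8% of 3020 elsewhere, and over all peaks of the series the share was 18.7%. In the 6 genes, the median RIP pileup and input level were 34 and 7.16 in the last 10 kb and 19 and 2.12 elsewhere. The median fold was 3.57 and 4.44. All these values use the authors' bodies. Elsewhere therefore includes the 11 Camta1 peaks at its reference 3' end and those over Per3, Vamp3 and Tnfrsf9. The share of peaks at an input level of at most 1 tag was 61.5% in Anks1b (8 of 13, exact 95% interval 31.6 to 86.1), 6 of 12 in Gmds, 42.9% in Pcdh15 (15 of 35), 13.2% in Camta1 (5 of 38), 8.57% in Bbx (3 of 35) and 0 of 5 in Nalcn. The exact intervals were 21.1 to 78.9 in Gmds, 26.3 to 60.6 in Pcdh15, 4.41 to 28.1 in Camta1, 1.80 to 23.1 in Bbx and 0 to 52.2 in Nalcn. Most pairs of genes overlapped, and the pairs that did not were Anks1b with Camta1, Anks1b with Bbx and Pcdh15 with Bbx. They cover counting only, and fewer cells of a type cannot be told apart from less RNA per cell in whole ovary. Peaks are not independent either: those of a cluster may share an RNA.

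**Figure D4:**
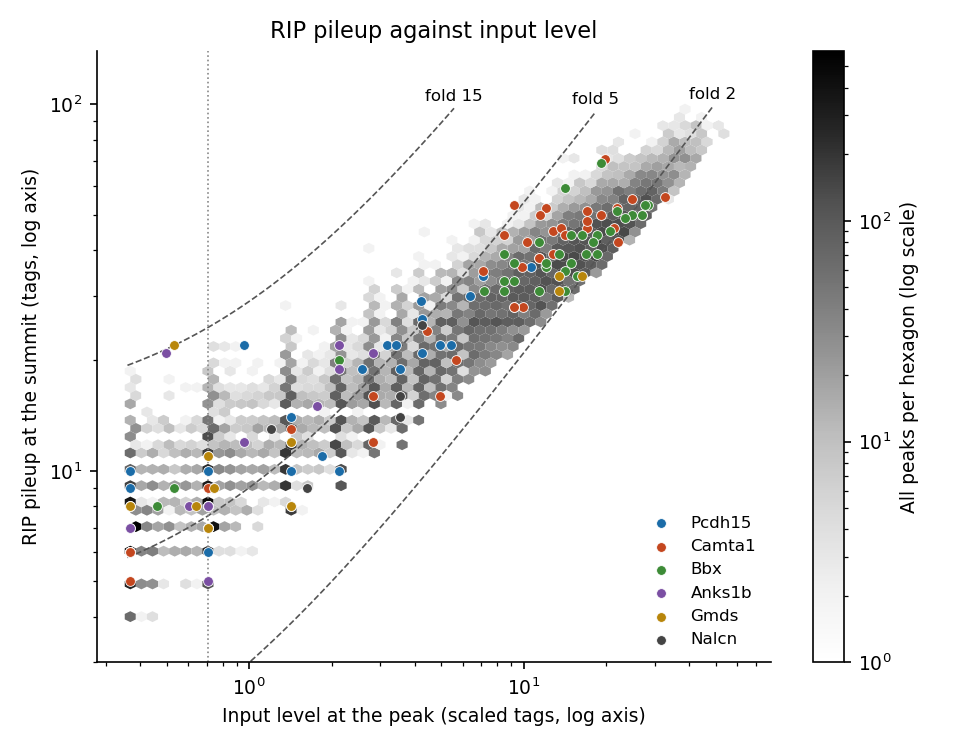
ELAVL2 RIP pileup in tags against input level in scaled tags, both on log axes, for the 138 peaks of the 6 genes (coloured) and all 28332 peaks (grey hexagons, log count). Dashed lines join equal folds of 2, 5 and 15 and the dotted line marks 1 input tag. The Gmds and Anks1b peaks with folds of 15 and 14.7 lie at input levels of 0.531 and 0.495, and most Bbx peaks lie at input levels above 7.

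The fold and the input level are tied by construction. Among the 37 peaks of the 6 genes at an input level of at most 1 tag, the medians were 5.27 for the fold and 8 for the pileup, and only 2 had 20 or more RIP tags, the tall peaks of Gmds and Anks1b. Among the 101 peaks above that level they were 3.40 and 34, and 77 had 20 or more tags. Of all 5308 peaks in the series at an input level of at most 1 tag, the median fold was 5.85 and the median pileup 8. At the floor of 0.369 the lowest fold that any peak had was 3.65, and no peak there was called with a smaller one. Folds of Anks1b and Bbx peaks, with median input levels of 0.708 and 14.2, thus come from different parts of this range.

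The 6 genes were set beside the 506 other genes of the authors' table with a body of at least 100 kb and at least 5 overlapping peaks, as a description with no test. Shares, ranks and counts for these genes use the authors' bodies, which were not replaced by reference bodies. Some of these bodies are too long, as in Camta1: Fgfr2 had 49 peaks on 2960.9 kb, but 0 in its reference body of 104.4 kb. In the 6 genes, 51 of 138 peaks (37%, exact 95% interval 28.9 to 45.6) were in the last 10% of the body. In the others it was 2099 of 4868 gene-peak pairs (43.1%, 41.7 to 44.5). These pairs come from 4685 peaks, since overlapping genes share peaks, and the interval counts a shared peak more than once. By gene, the count was 18 of 35 in Pcdh15, 19 of 35 in Bbx, 7 of 38 in Camta1, 1 of 13 in Anks1b, 1 of 12 in Gmds and 5 of 5 in Nalcn, and the median over the other genes was 42.9%. The 9th of 10 equal parts of the body held 25.4% of the peaks of the 6 genes, against 7.09% in the others, and 26 of those 35 peaks were Camta1 peaks around its reference 3' end and over Vamp3 and Per3. With reference bodies in place of the authors' bodies, 49.6% of the 121 peaks left lay in the last 10%. This share was not computed on reference bodies for the 506 other genes, so it is not set against their 43.1%. A lack of peaks in the last 10 kb, as in Anks1b and Gmds, was also found in 165 of the 506 genes (32.6%).

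**Figure D5:**
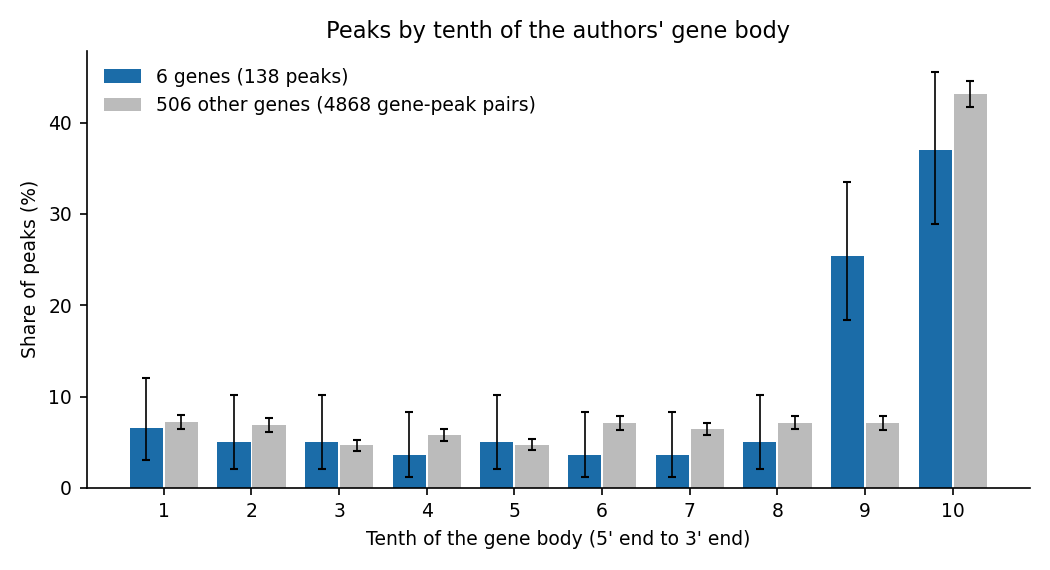
Share of peaks in each of 10 equal parts of the authors' gene body, from the 5' end (1) to the 3' end (10), for the 6 genes (blue, 138 peaks) and 506 other long genes (grey, 4868 gene-peak pairs), with exact binomial 95% intervals that cover counting only. Part 10 holds 37% and 43.1%, and part 9 holds 25.4% and 7.09%.

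In peak density these other long genes had quartiles of 2.45 and 6.32 per 100 kb. Bbx lay above this range, Camta1 inside it, and Gmds, Pcdh15, Nalcn and Anks1b below it. Bbx, with 14.6 peaks per 100 kb, was exceeded by 17 of the 506 genes, Camta1 (4.02) by 253, Gmds (2.31) by 391, Pcdh15 (2.26) by 397, Nalcn (1.43) by 450 and Anks1b (1.18) by 468, where the median was 4.03. By number of clusters, where the median was 2, Pcdh15 (13) was exceeded by 1 gene, Camta1 (8) by 7 and Bbx (7) by 9. Anks1b and Gmds (5 each) were exceeded by 32, whereas Nalcn (1) was exceeded by 399. For Camta1, density and clusters count all 38 peaks on the authors' body, and 21 of them lay in the reference body of 802.2 kb. With its peaks over Per3, Vamp3 and Tnfrsf9 left out, the 39 clusters of the 6 genes became 36. By median input level, Bbx (14.2) was exceeded by 44 genes and Anks1b (0.708) by 457. The median fold, on which the 6 genes were partly chosen, was 4.08 over their peaks and 3.73 over the 4868 pairs of the others.

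The spread of peaks over 10 equal parts of the body was compared between genes of at least 200 kb with at least 10 overlapping peaks, and Nalcn, which has 5, was set against the same genes. Likeness was the sum over the 10 parts of the absolute difference in the share of peaks, which runs from 0 for equal profiles to 2 for profiles with no part in common. Pcdh15 was nearest to Bbx (0.457), Bbx to Lrrc16a (0.312), Camta1 to Lsamp (0.263), Anks1b to C130026I21Rik (0.513) and Gmds equally to Trp63 and Pard3b (0.833). Camta1 was placed on the authors' body, where 26 of its 38 peaks fell in the 9th part. In its reference body, 16 of 21 peaks lay in the last 10%, and likeness on that body was not computed. Nalcn had a difference of 0 from 7 genes whose peaks were all in the last 10%, among them Dlgap1 with 17 peaks. These are the nearest of 110 or 111 genes, on few peaks each, and the input levels of such pairs differed, as in Camta1 and Lsamp (medians 10.8 and 0.708).

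In 2 of the 4 genes of the NALCN channel complex a peak overlapped the reference body: Fam155a, an auxiliary subunit, had 9 peaks with a best fold of 8.04 at 10 RIP tags against 0.369, and Unc80, a scaffold subunit, had 4 with a best fold of 7.33 at 11 against 0.637, while Unc79 and Fam155b had none. Of 8 genes of GDP-fucose synthesis, transport and use, 3 had a peak, namely Fpgt (6 peaks, best fold 4.34), Fut10 (1, 3.92) and Pofut1 (1, 2.69). Of 13 hair-cell adhesion and Usher genes, 3 had a peak, among them Adgrv1 (fold 3.73) and Tmc2 (2.52) with 1 each. Cdh23, which encodes the tip-link partner of protocadherin 15, had none. Of 4 relatives of Camta1, Bbx and Anks1b, Anks1a had 2 peaks (best fold 5.85) and Hbp1 had 2 (3.74), while Camta2 and Cic had none. Over all 49993 reference genes of any length with a position, 13.5% were overlapped by a peak, and that share is higher among longer genes, at 63.0% from 200 kb.

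Among 38 other long genes named for comparison, 33 had at least 1 peak and 12 at least 10. The shares given above for all reference genes of at least 200 kb were 63.0% and 10.0%. The listed genes span 104.4 to 2390.4 kb, and sizes were not matched, so their counts are not read against these shares. The list was drawn up with the peak counts of Celf2 and Fgfr2 known, and Fgfr2, with a reference body of 104.4 kb, had no peak in it. Many peaks in reference bodies were found in Celf2 (41, best fold 11.7), Macrod2 (17, 7.53), Auts2 (16, 8.78) and, with 13 each, Cntnap2 (8.0), Ctnna3 (6.62) and Ptprd (10.8). Their median input levels were 6.37 in Celf2, 1.42 in Macrod2 and 1.82 in Auts2, against 1.42 in Pcdh15 and 14.2 in Bbx.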

How the data were processed

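By the submitters' processing notes, the tools were MACS2 2.1.0.20140616, TopHat2 2.0.8b, FastQC 0.11.2 and CASAVA 1.8.2, with build mm10. Per the file headers, 3 RIP and 3 input lanes of reads of 36 bases were pooled and peaks called with tags extended to 50 bp, 1 tag per position and strand, q under 0.05 and background windows of 1000 and 10000 bp, so a pileup cannot exceed 100. Peaks carry no strand. The signal (RIP pileup), the fold ratio and the -log10 p and q were deposited by the authors. No source used here says how they made the gene table, from which 42176 exact repeats among 85730 rows were dropped. Its pairs marked nearest include peaks inside genes, so overlap was read from its location column.

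Positions run along the authors' gene bodies on the gene's strand. Input levels, clusters (gap of at most 10 kb), shares and counts were computed and plotted with matplotlib 3.10.9, scipy 1.17.1, pandas 2.3.3, numpy 2.4.6 and Python 3.11.15, after the functions were tested on simulated peaks. Reference bodies come from RefSeq on GRCm38.p6, which shares its coordinates with mm10. Exact binomial intervals are Clopper-Pearson. Members and lists were chosen with earlier results of these data known. For each gene, the named peaks are those with the largest fold, pileup and -log10 q, the extremes of input level, the ends of the strand and the largest cluster, and other peaks were named after their values were seen. Alternatives were stricter thresholds, other gaps and bodies, merging, and leaving out shared peaks or 1 gene. Peak sequences were not used here, and some listed genes are not reported here. No p-value is given, since 1 RIP and 1 input sample allow no test.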

Additional observations from a re-analysis of the deposited data

How the results depend on the processing

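No paired analysis was possible because there is 1 RIP and 1 input sample and peaks were called on pooled lanes. The 138 peaks inside the 6 genes were 70 at a fold of at least 4, 79 at a pileup of at least 20, 26 when paired with exactly 1 gene and 58 after merging peaks closer than 1000 bp. The 39 clusters were 18 at a pileup of at least 20, 11 from peaks paired with exactly 1 gene and 19 with a gap of at most 50 kb. The share in the last 10% of the body, 37%, was 49.6% with reference gene bodies, 0% from peaks paired with exactly 1 gene, 27.6% after merging and 62.3% in the last 20%. Peaks paired with exactly 1 gene were those nearest the 5' end of Camta1, Bbx, Anks1b and Gmds. No peak of Bbx, Anks1b or Gmds overlapped another gene in the authors' table, so this 0% is not a measure of overlap with other genes. The share at an input level of at most 1 tag, 26.8%, was 51.4% at a fold of at least 4, 2.53% at a pileup of at least 20 and 10.9% at the genome-wide background. The median fold, 4.08, was 4.58 at a -log10 q of at least 3, 5.28 at a fold of at least 4, 3.15 at a pileup of at least 20, 5.28 from peaks paired with exactly 1 gene, 4.68 after merging and 4.94 without the pseudocount. Leaving out 1 gene, an alternative chosen after seeing the data, gave 3.48 without Pcdh15 and 4.61 without Bbx. These thresholds and subsets remove or redefine peaks by construction. With peaks that have a twin left out, all 5 values stayed within 1.5 times for counts and within their 95% intervals otherwise. Depth limits the peaks of 5 to 9 tags, whose counting intervals are wide.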
